A study of Mus musculus with 36 samples.

Results

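Whole kidneys of digenic mice were compared with those of wild-type mice at postnatal day 3 (P3) by RNA sequencing. Digenic mice lacked Pkhd1 on both chromosomes and were homozygous for the RC allele of Pkd1 (Pkhd1-/-;Pkd1RC/RC), and all animals were C57BL/6. Each of these groups held 3 libraries, found by matching the animal number in the header of a count column to the one in the sample title, so that 6 of the 36 libraries of the series form the comparison. The other 6 libraries of P3, 3 from Pkd1-RC/RC and 3 from Pkhd1-/- kidneys, were fitted with them and served to set the digenic change beside each single mutation. Digenic and wild-type libraries of P0 and P12, 3 for each group, served to set it beside the same change at other ages. The column header of digenic replicate 1 of P12 gives P3, against its sample title, and 1 Pkd1-RC/RC library of P12 carries a Pkhd1 header, so values of P12 are also given without both. The log2 levels of that digenic library correlated over genes at 0.955 to 0.984 with the other libraries of P12 and at 0.922 to 0.965 with those of P3, a description over libraries of 1 table. The labels give no litter and no pooling of animals, so p-values measure the spread between these samples.

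Pkd1 encodes polycystin-1, a large membrane protein of the primary cilium which is mutated in most families with the dominant form of polycystic disease. The RC allele is a missense change that leaves some of its function. Pkhd1 encodes fibrocystin, a single-pass membrane protein of the same organelle, and its mutations cause the recessive disease, in which collecting ducts dilate soon after birth. Cystic kidneys are known to recruit macrophages, and interferons act through JAK kinases and STAT factors to induce antiviral proteins, GTPases of the IRG and GBP families and the machinery that presents peptides on MHC molecules.

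Total counts ran from 53782737 to 77637005 per library in the 6 libraries and from 52278185 to 78461405 in the 12 libraries of P3. Levels are CPM, library-scaled counts corrected by TMM factors, and a change is a log2 fold change, digenic over wild type, with its standard error. Xist and Y-linked genes showed 3 females among the digenic mice and 1 female among the 3 wild-type mice, replicate 3, so sex and genotype were partly confounded. Adrenal markers summed to 4.93, 5.81 and 549.7 CPM in digenic replicates 1, 2 and 3, and to 5.81, 36 and 5.59 CPM in wild-type replicates 1, 2 and 3, so that digenic replicate 3 carried adrenal transcripts. Among the 6 libraries, fat and muscle markers were highest in wild-type replicate 2, at 285 and 15.6 CPM. The part of these tissues in the results was not tested, and counts without the libraries are given beside them. On the first principal component of the 12 libraries, with 33.5% of the variance, digenic replicates 1 and 2 lay at 43.4 and 53.3, digenic replicate 3 at 7.0 and wild-type libraries at -4.25, -41.5 and 10.3. Proximal tubule markers summed to between 8244 and 9610.0 CPM in digenic and between 7561 and 10429 CPM in wild-type kidneys, as the labelled tissue requires.

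Pkhd1 checked the genotypes. It was measured at 11.8, 11.8 and 10.5 CPM in digenic kidneys, against 96.3, 65.8 and 108 CPM in wild-type kidneys (change -2.98 ± 0.2, adjusted p = 1.45e-05; each adjusted p is from the quasi-likelihood F test of edgeR, corrected by Benjamini and Hochberg over all genes). Pkhd1-/- kidneys held 7.16, 9.85 and 6.80 CPM and Pkd1-RC/RC kidneys 85.1, 100.002 and 122 CPM, so all 12 libraries matched their labels for this gene. The gene 4930486I03Rik overlaps it on the other strand and fell with it (-9.63 ± 0.860). Whether reads were counted by strand is not stated, so the reads of genes that overlap in this way cannot be told apart. Pkd1, where RC changes a base and need not change the RNA level, was at 87.6, 84.5 and 72.5 CPM in digenic and 72.4, 61.8 and 77.0 CPM in wild-type kidneys (0.21 ± 0.109, adjusted p = 0.368). Pkd2, which encodes the partner channel polycystin-2, was at 174, 172 and 158 CPM in digenic and 147, 107 and 146 CPM in wild-type kidneys, without overlap but short of the threshold (0.33 ± 0.148, adjusted p = 0.298).

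Of 18043 genes tested, 487 (2.7%) passed an adjusted p of 0.05, and 249 of these differed by at least 2-fold. Rises made up 377 (2.09%) and falls 110 (0.61%), while 3256 genes (18%) had no overlap between the 3 digenic and 3 wild-type levels. The median change of all genes was -0.01. Over the 377 rises, the median level stood 1.02, 1.33 and 0.73 log2 units above the wild-type mean in digenic replicates 1, 2 and 3. Replicate 2 was the highest digenic library for 301 of them and replicate 3 the lowest for 275. The 377 genes lay 0.23 to 0.28 above the wild-type mean in Pkd1-RC/RC libraries and -0.03 to 0.04 from it in Pkhd1-/- libraries. They were chosen against these same wild-type libraries, which can raise such values. Against wild type 8 genes passed in Pkd1-RC/RC and 3 in Pkhd1-/- kidneys. In 376 of the 377 rises and 110 of the 110 falls every digenic library lay beyond wild-type replicate 3, the female. The genes were called on these same libraries, so this position follows largely from the call and cannot separate sex from genotype. With sex as a term in the fit 54 genes passed, 53 of them among the 487, and 6 passed among female libraries alone. The count was 565 without the libraries that carried adrenal transcripts. Without digenic replicate 1, 2 or 3 it was 245, 174 or 845, and without wild-type replicate 1, 2 or 3 it was 152, 372 or 320. The scatter of change against level shows where named genes lie among the rest.

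**Figure D1:**
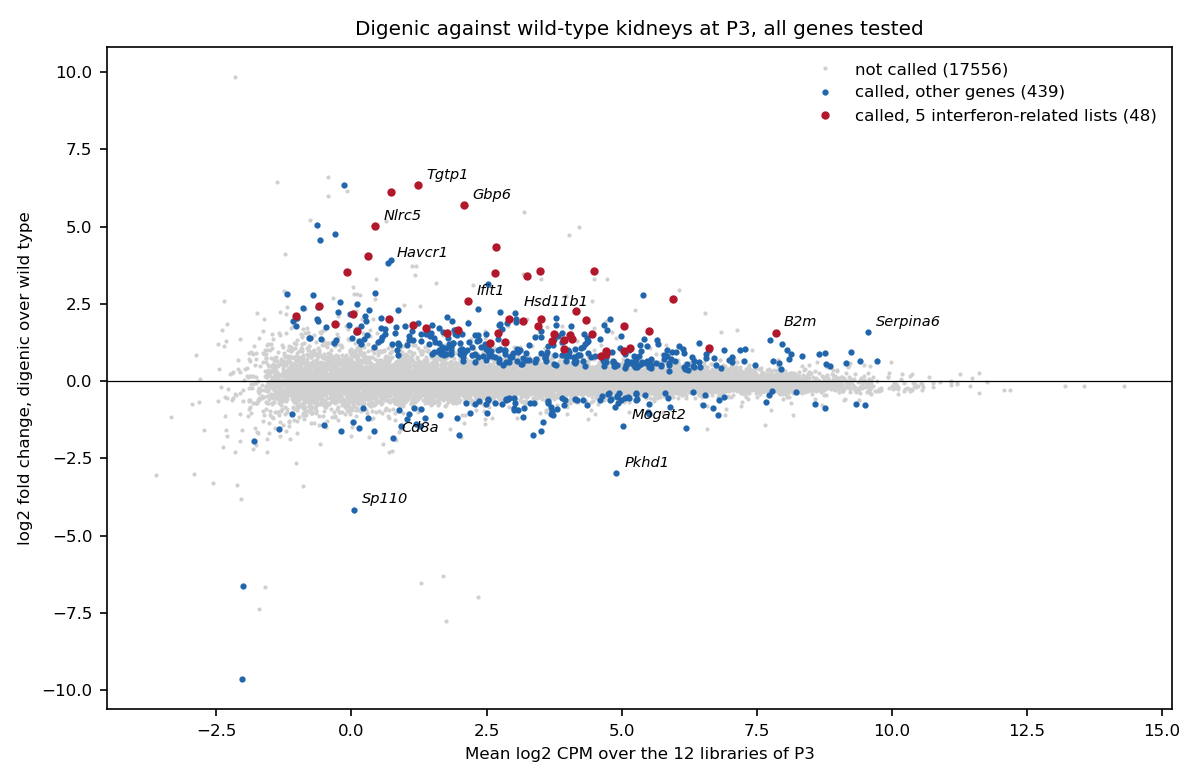
Log2 fold change (digenic over wild type, vertical axis) against mean log2 CPM over the 12 libraries of P3 (horizontal axis), 1 point per gene tested. Grey points were not called (17556), blue points were called (439), and red points are called members of 5 interferon-related lists (48), all of which lie above 0.

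Genes of the interferon response rose together in digenic kidneys, and the height of the response differed between the 3 digenic mice. Tgtp1, an interferon-inducible GTPase that attacks the vacuoles of intracellular parasites, was at 45.2, 213 and 3.23 CPM in digenic kidneys and at 1.12, 1.08 and 1.03 CPM in wild-type kidneys (6.34 ± 1.31, adjusted p = 0.0446). Replicate 2 was highest, replicate 1 next and replicate 3 lowest, and this lowest digenic level was still above each wild-type level. Gbp6, a guanylate-binding protein, followed the same order with 63.0, 243 and 6.24 CPM, against 1.40, 2.38 and 2.27 CPM in wild-type kidneys (5.68 ± 1.16, adjusted p = 0.0440). Irgm2, a regulator of the IRG GTPases, did so with 96.3, 345 and 29.0 CPM against 14.2, 12.6 and 12.7 CPM (3.58 ± 0.749, adjusted p = 0.0448). These genes were chosen among those whose groups did not overlap, so that separation is not a result.

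Over all genes tested 2.09% rose and 18% had no overlap between the groups. Among the 14 measured IRG and GBP GTPases 9 rose and 0 fell, the median change was 4.20, and 14 of 14 had no overlap. Tgtp2 (6.13 ± 1.28), Ifi47 (4.34 ± 0.894), Gbp5 (4.06 ± 0.883), Gbp7 (3.56 ± 0.772), Gbp3 (3.39 ± 0.642) and Gbp9 (2.01 ± 0.393) were the other members that passed, with adjusted p from 0.0215 to 0.0482. Gbp2, Iigp1, Igtp, Gbp4 and Irgm1 had changes between 2.96 and 5.47 and did not pass. Mean log2 levels of the list stood 3.40, 5.56 and 1.27 above the wild-type mean in digenic replicates 1, 2 and 3. The number called was 14 without digenic replicate 3, 12 without replicate 2, 3 without replicate 1 and 0 without any 1 of the 3 wild-type libraries, where the median stayed between 4.15 and 4.26, while without digenic replicate 2 it was 2.49. Tgtp1 changed by 4.49 to 6.90 over the 6 fits that left out 1 library. With sex as a term 0 of the 14 passed, at a median of 4.15. Tgtp1 and Tgtp2 are near-identical copies, Ifi47, Tgtp1 and Tgtp2 share sequence with the overlapping gene Olfr56, Irgm2 overlaps Igtp, and GBP genes are close paralogs, so the split of reads among them is uncertain.

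**Figure D2:**
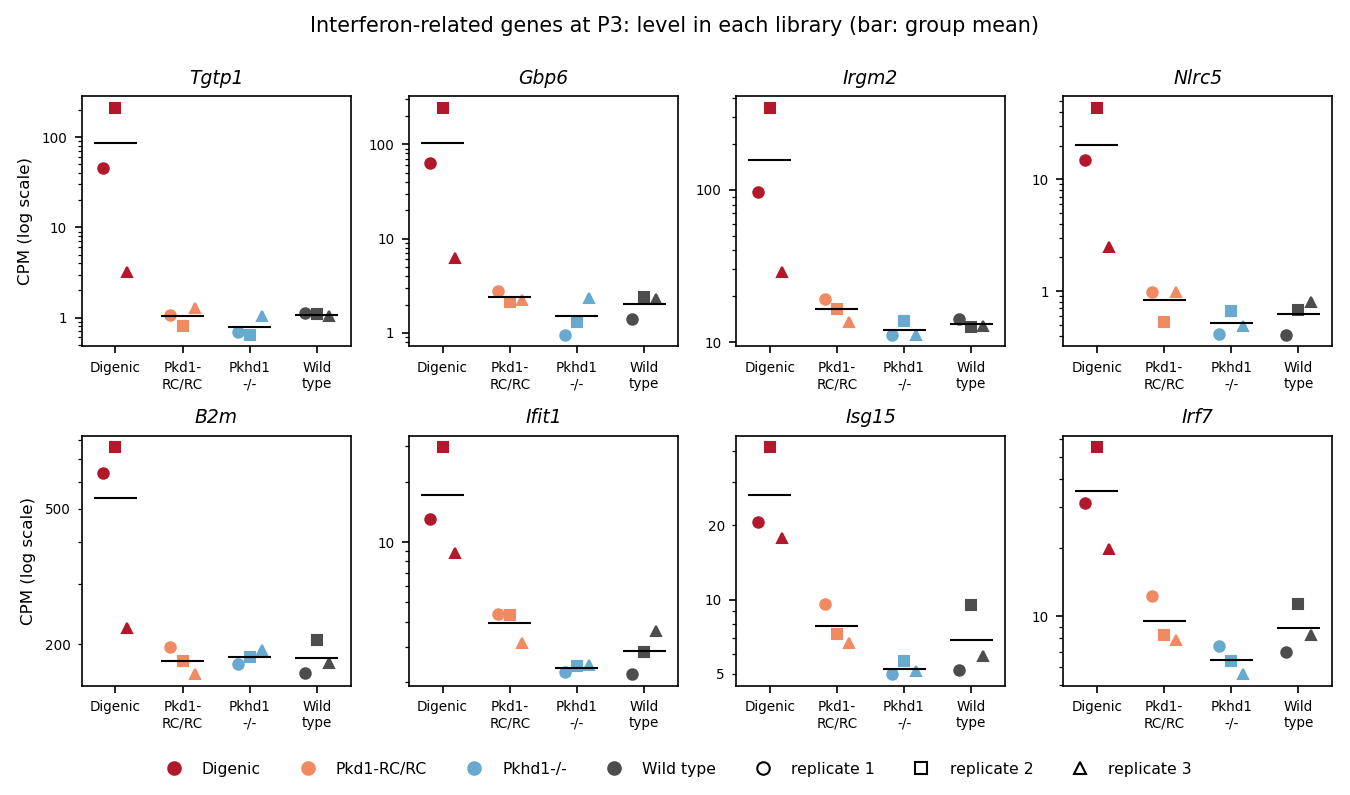
Level of 8 interferon-related genes in CPM (log scale) in each library of P3, by genotype; symbols mark replicate numbers and bars group means. Digenic replicate 2 is highest and digenic replicate 3 lowest of the digenic libraries for each gene, as with 213 and 3.23 CPM of Tgtp1. Every digenic library lies above the wild-type libraries. Tgtp1, Gbp6, Irgm2 and Nlrc5 were chosen among genes without overlap and the others among called genes, so that separation is not a result.

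Upstream of these GTPases, some signal transducers rose while no receptor passed the test. Of 16 measured interferon receptors and transducers 5 rose and 0 fell (median 0.73), beside 2.09% of all genes that rose. Among the 5 were Stat2, a STAT factor, Irf9, its DNA-binding partner, Irf7, which amplifies type I interferon, and Usp18, a protease that dampens the receptor. Stat2 was at 29.5, 54.1 and 21.8 CPM in digenic and 13.0, 12.7 and 12.1 CPM in wild-type kidneys (1.48 ± 0.243, adjusted p = 0.00831). Irf7 was at 31.5, 55.3 and 19.7 CPM in digenic and 6.96, 11.3 and 8.24 CPM in wild-type kidneys (2.0 ± 0.327, adjusted p = 0.00849). Irf1, a target and amplifier of interferon gamma, was at 55.0, 199.8 and 21.0 CPM in digenic and 15.6, 18.1 and 12.1 CPM in wild-type kidneys and did not pass (2.59 ± 0.673, adjusted p = 0.0883). The call of Irf7 needed wild-type replicate 1 and that of Irf9 (1.08 ± 0.207) wild-type replicates 1 and 3, with changes of 1.53 to 2.29 and 0.74 to 1.29 when each library was left out. The list's count was 2 and 3 without wild-type replicate 1 and 3, and 0 with sex as a term. The receptors Ifnar1, Ifnar2, Ifngr1 and Ifngr2 changed by 0.08 to 0.17 and the kinases Jak1 and Jak2 by 0.03 and 0.04, and none of these passed. Of 13 interferon and partner cytokine genes listed, Il15 and Il18 were measured, with changes of 0.12 and 1.0 that did not pass, and the interferon genes themselves were not analysed here.

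Some sensors and most of the listed effectors of antiviral defence rose too. Of 15 nucleic acid sensors 4 rose and 0 fell (median 0.60), namely the RNA helicases Ddx58, Ifih1 and Dhx58 and the Z-nucleic acid sensor Zbp1. The fit with sex as a term called 1 sensor, and without digenic replicate 2 the median was 0.32. Zbp1 was at 5.36, 19 and 2.21 CPM in digenic kidneys, against 0.735, 0.895 and 0.690 CPM in wild-type kidneys (3.52 ± 0.622, adjusted p = 0.0134), and it lost the call without any 1 wild-type library (changes from 2.29 to 3.98 over the libraries left out). Of 33 antiviral interferon-stimulated genes 26 rose and 0 fell (median 1.52), and 30 showed no overlap, beside 2.09% and 18% of all genes. Ifit1, which binds viral RNA caps, was at 13.1, 29.8 and 8.82 CPM in digenic and 2.19, 2.82 and 3.60 CPM in wild-type kidneys, and Isg15, a ubiquitin-like modifier, at 20.7, 41.5 and 17.7 CPM against 5.2, 9.47 and 5.90 CPM. Replicate 3 was again the lowest of the digenic libraries and lay outside the wild-type range for both. Ifit1 and Isg15 were named as called genes of these same libraries, so that position follows largely from the call. Their calls held when each of the 6 libraries was left out in turn, but missed the threshold with sex as a term (adjusted p = 0.0677 and 0.0944). Leaving out digenic replicate 1, 2 or 3 gave 14, 12 or 28 calls in this list, leaving out wild-type replicate 1, 2 or 3 gave 7, 15 or 15, and sex as a term gave 0, at medians from 0.95 to 1.77.

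These 4 promoters are printed because they hold the motifs searched for, Tgtp1 and Irgm2 among the IRG GTPases and Ifit1 and Isg15 among the antiviral genes. Those of Ifi47, Oasl2, Helz2, Irf7, Irf9, Psmb9 and H2-Q4, also named here, held neither motif. The sequences are RefSeq promoters of build GRCm38.p6, 5′ to 3′, from 250 bases before to 50 bases after the start site. Capitals mark an interferon-stimulated response element core (GAAANNGAAA) or a gamma-activated site (TTCNNNGAA), searched on both strands.
Tgtp1 (chr11:48992197-48992496, minus strand): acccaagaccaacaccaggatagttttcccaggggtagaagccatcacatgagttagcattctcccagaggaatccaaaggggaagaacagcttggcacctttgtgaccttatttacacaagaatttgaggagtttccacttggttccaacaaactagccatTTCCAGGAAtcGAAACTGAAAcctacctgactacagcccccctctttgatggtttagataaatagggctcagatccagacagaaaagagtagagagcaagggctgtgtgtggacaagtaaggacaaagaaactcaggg
Irgm2 (chr11:58214727-58215026, plus strand): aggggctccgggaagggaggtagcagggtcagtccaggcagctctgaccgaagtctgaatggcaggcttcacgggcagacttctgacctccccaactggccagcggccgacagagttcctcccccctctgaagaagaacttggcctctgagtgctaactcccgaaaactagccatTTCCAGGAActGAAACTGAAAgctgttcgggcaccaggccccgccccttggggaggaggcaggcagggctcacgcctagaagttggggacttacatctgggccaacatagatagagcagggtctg
Ifit1 (chr19:34640639-34640938, plus strand): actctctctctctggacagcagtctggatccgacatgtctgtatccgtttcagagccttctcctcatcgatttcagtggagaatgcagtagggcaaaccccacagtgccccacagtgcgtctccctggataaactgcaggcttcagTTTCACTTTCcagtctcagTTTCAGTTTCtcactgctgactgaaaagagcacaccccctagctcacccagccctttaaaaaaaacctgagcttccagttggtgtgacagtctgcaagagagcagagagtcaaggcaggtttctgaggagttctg
Isg15 (chr4:156200769-156201068, minus strand): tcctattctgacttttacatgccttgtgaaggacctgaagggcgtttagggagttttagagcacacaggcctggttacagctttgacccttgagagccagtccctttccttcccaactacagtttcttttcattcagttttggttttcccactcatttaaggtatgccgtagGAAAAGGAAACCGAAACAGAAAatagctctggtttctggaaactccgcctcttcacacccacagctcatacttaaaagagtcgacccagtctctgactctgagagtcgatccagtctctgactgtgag
In Tgtp1 and Irgm2 a gamma-activated site was followed at once by the response element core, beginning 88 and 75 bases before the start site. Ifit1 held 2 response element cores and Isg15 held 3 that overlapped. Of the measured IRG and GBP genes 10 had a promoter in the table, and 9 (90.0%) of these held the response element core and 6 (60.0%) the gamma-activated site. Among antiviral genes 12 of 26 (46.2%) and 6 of 26 (23.1%) did, among MHC class I genes 5 of 16 (31.2%) and 1 of 16 (6.25%), and among receptors and transducers 2 of 14 (14.3%) and 4 of 14 (28.6%). Over all 11889 tested genes with a promoter the shares were 3.61% and 8.36%, and over 251 genes called higher in digenic kidneys they were 14.3% and 10.8%, while over 70 genes called lower they were 7.14% and 10%. These are matches of letters, given without a test.

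In antigen presentation digenic replicates 1 and 2 stood apart from replicate 3. B2m, the light chain of MHC class I, was at 636, 761 and 224 CPM in digenic kidneys, against 165, 206 and 176 CPM in wild-type kidneys (1.57 ± 0.329, adjusted p = 0.0320). Nlrc5, the transactivator of class I genes, was at 14.9, 43.7 and 2.46 CPM in digenic kidneys, against 0.404, 0.675 and 0.799 CPM in wild-type kidneys (5.0 ± 0.899, adjusted p = 0.0215). Digenic replicate 3 was the lowest digenic library for both and lay above the wild-type range. Nlrc5 was chosen among genes without overlap and B2m among called genes, so that position is not a result. Of 20 measured class I genes 4 rose and 0 fell (median 1.60), beside 2.09% of all genes that rose. Psmb9 of the immunoproteasome and H2-Q4 were the others, and each of the 20 was higher on average in digenic kidneys. The count was 20 of 20 without digenic replicate 3, 1 or 2 without digenic replicate 1 or 2, and 0 without any 1 wild-type library. With sex as a term 0 class I and 0 class II genes passed. Nlrc5 lost its call in the 3 fits without a wild-type library (3.78 to 5.53 over the 6). B2m kept its call in 1 of the 6 fits, the one without digenic replicate 3 (1.24 to 1.94), and lost it with sex as a term (adjusted p = 0.219), and H2-Q4 and Psmb9 likewise kept theirs in 1 of 6. H2-Q4 belongs to a family of close copies and Psmb9 overlaps Tap1, so both are uncertain. For class II, 2 of 10 rose (median 2.02), the protease Ctss (0.86 ± 0.191) and H2-DMb1 (1.41 ± 0.332), with digenic replicate 3 inside the wild-type range for H2-DMb1 (17.0 against 14.3 to 18.8 CPM). The count was 9 without digenic replicate 3 and 0 or 1 without any other library. Cd74, the invariant chain, was at 237, 307 and 13.3 CPM in digenic and 14.5, 20.1 and 22.2 CPM in wild-type kidneys and did not pass (3.30 ± 0.881, adjusted p = 0.101); digenic replicate 3 lay below all 3 wild-type libraries. Levels of the class II list stood 2.13, 2.77 and -0.10 log2 units from the wild-type mean in digenic replicates 1, 2 and 3.

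**Figure D3:**
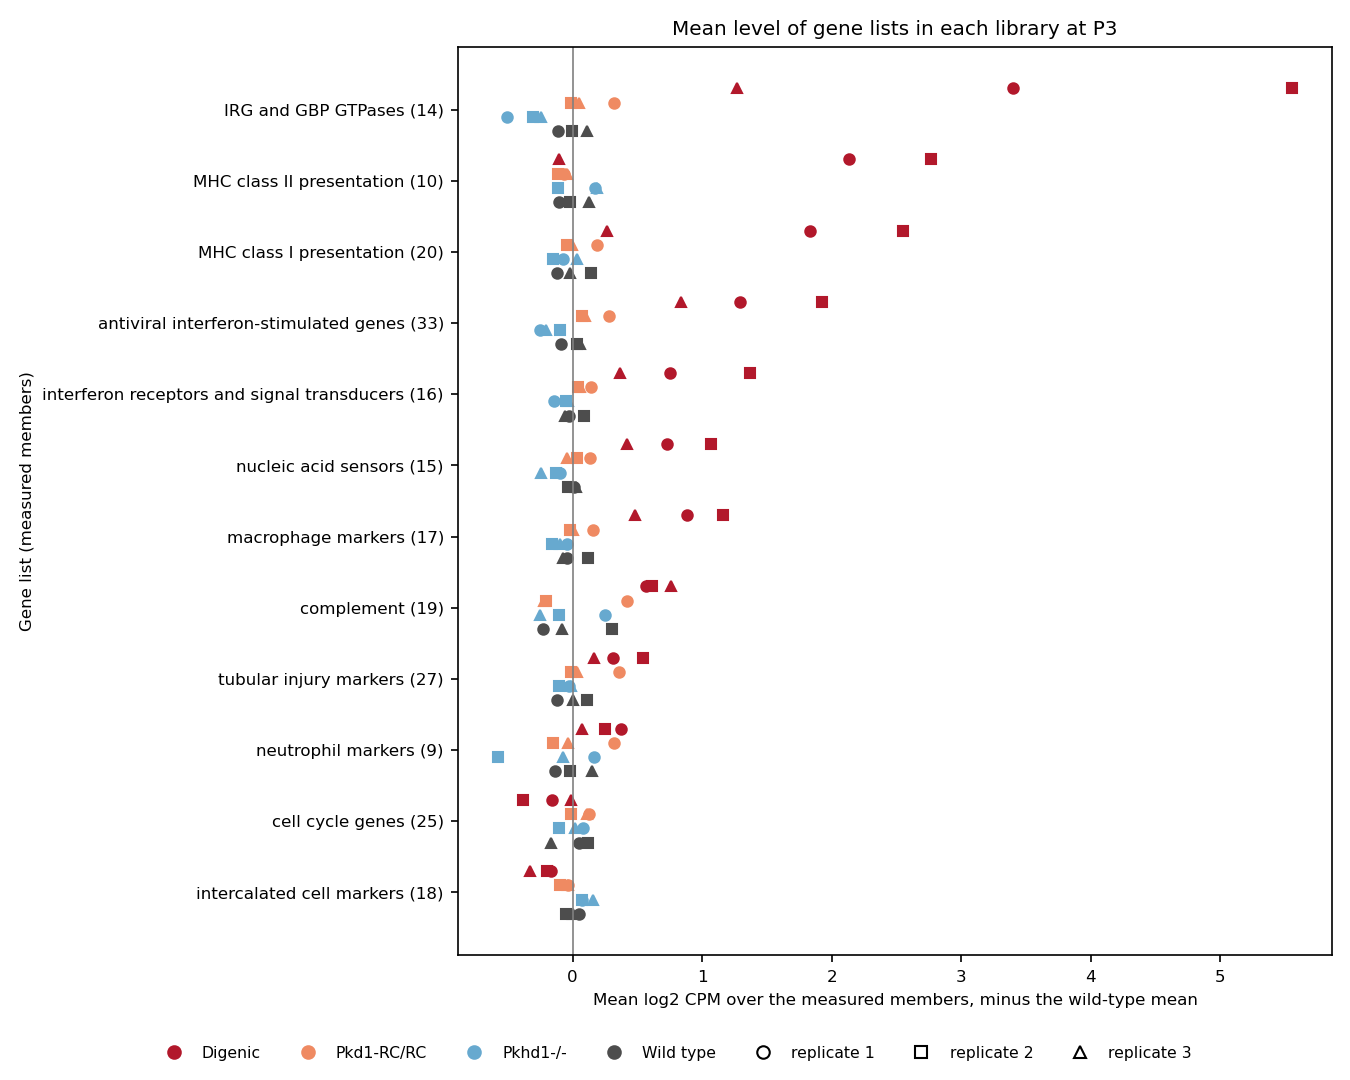
Mean log2 CPM of 12 gene lists in each library of P3, as the difference from the wild-type mean (horizontal axis), by genotype from digenic at the top of each row to wild type at its foot; symbols mark replicate numbers. Digenic libraries reach 3.40, 5.56 and 1.27 for IRG and GBP GTPases, while single-mutant libraries of that list lie between -0.51 and 0.32.

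Macrophage genes also rose in digenic kidneys, where 2.09% of all genes rose. Of 17 measured markers 7 rose and 0 fell (median 0.69), and their summed level was 277 to 429 CPM in digenic and 199 to 218 CPM in wild-type kidneys. Siglec1, a sialic acid receptor of macrophages that interferon induces, was at 8.81, 9.35 and 5.50 CPM in digenic kidneys, against 2.35, 2.01 and 2.77 CPM in wild-type kidneys (1.73 ± 0.219, adjusted p = 0.00255), and it was the member that also passed with sex as a term (adjusted p = 0.0424). Lyz2, lysozyme, was at 71.6, 123 and 57.1 CPM in digenic and 32.1, 34.3 and 30.7 CPM in wild-type kidneys. The scavenger receptor Msr1 (2.06 ± 0.343) and the IgG receptor Fcgr1 (1.64 ± 0.269) rose as well. The count was 5 to 8 without 1 library other than digenic replicate 3, 11 without that library and 1 with sex as a term. In whole tissue, more cells of a type and more RNA per cell cannot be told apart. Neutrophil markers gave 0 calls of 9 (median 0.23), with sums of 11.2 to 16.0 CPM in digenic and 11.4 to 12.9 CPM in wild-type kidneys. Of 7 lymphocyte markers 1 fell and 0 rose, the T-cell coreceptor Cd8a, at 0.774, 0.901 and 0.684 CPM in digenic and 3.80, 2.41 and 2.27 CPM in wild-type kidneys (-1.84 ± 0.263, adjusted p = 0.00441).

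Secreted factors of inflammation moved unevenly. Of 10 measured chemokines 3 rose and 1 fell (median 0.53), beside 2.09% of all genes that rose and 0.61% that fell. Ccl21a, which guides cells to lymphatic vessels, was at 24.9, 21.3 and 10.02 CPM in digenic and 5.42, 5.96 and 6.04 CPM in wild-type kidneys (1.69 ± 0.262, adjusted p = 0.00627), though close copies of it exist and make it uncertain. The monocyte attractant Ccl12 (2.50 ± 0.380) and Cxcl16 (0.92 ± 0.193) rose, and Cxcl13 fell (-1.22 ± 0.292). Cxcl16 kept its call in 1 of the 6 fits that left out a library (0.67 to 1.15). Cxcl10, an interferon target, was at 6.85, 47.0 and 3.46 CPM in digenic and 1.86, 1.64 and 1.77 CPM in wild-type kidneys and did not pass (3.44 ± 0.846, adjusted p = 0.0676). Of 19 complement genes 4 rose (median 0.69), Masp1, Cfp, C5ar1 and Cfb, and of 15 measured NF-kB targets and acute phase genes 5 rose (median 0.47), the largest change being that of the serpin Serpina3f (5.05 ± 0.984), with the adhesion molecule Icam1 (1.35 ± 0.238) and the apoptosis inhibitor Birc3 (0.74 ± 0.131). Complement calls numbered 2, 1 and 7 without digenic replicate 1, 2 and 3, and 2, 6 and 1 without wild-type replicate 1, 2 and 3. Those of the NF-kB list numbered 3, 3 and 6, and 1, 3 and 2. The fit with a sex term called 0 chemokines, 1 complement gene and 0 genes of the NF-kB list. Serpina3f and Serpina3g (1.82 ± 0.351) have close copies and are uncertain. Serpina3f lost the call without any 1 wild-type library (3.32 to 5.59), Serpina3g without any library but digenic replicate 3 (1.42 to 2.19), and Icam1 without wild-type replicate 1 (0.91 to 1.60). Il18bp, the decoy receptor of interleukin-18, was at 11.4, 31.6 and 1.83 CPM in digenic and 0.790, 0.945 and 1.20 CPM in wild-type kidneys (3.92 ± 0.788, adjusted p = 0.0306), a call lost without digenic replicate 1 or any wild-type library (changes from 2.74 to 4.44).

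The genes with the smallest adjusted p-values after Pkhd1 are described next. Choosing by p favours genes that vary little between replicates, and only genes whose groups did not overlap were eligible. Neither the evenness of their levels nor the separation of their groups is therefore a result. Serpina6 (chr12:103646630-103657212, minus strand, mm10), which encodes the globulin that carries corticosteroids in plasma, was at 1465, 1487 and 1487 CPM in digenic kidneys, against 382, 488 and 614 CPM in wild-type kidneys (1.58 ± 0.139, adjusted p = 0.000265). The digenic levels were nearly equal and lay above the wild-type range. Serpina6 passed in all 17 alternatives run, those of sex (1.42, adjusted p = 0.00481) and of leaving out adrenal-positive libraries (1.58, adjusted p = 0.00191) included. Hsd11b1, which regenerates active glucocorticoid, was at 19, 26.8 and 21.8 CPM in digenic and 4.24, 3.11 and 7.12 CPM in wild-type kidneys (2.22 ± 0.240, adjusted p = 0.000761). Hif3a, a hypoxia-inducible factor subunit that can restrain the others, was at 45.9, 58.4 and 59.6 CPM in digenic and 21.6, 16.1 and 14.4 CPM in wild-type kidneys (1.65 ± 0.173, adjusted p = 0.000583). Digenic replicate 3 was not the lowest for either.

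The cholesterol transporter gene Gramd1b was at 104, 109 and 115 CPM in digenic and 52.8, 46.3 and 58.9 CPM in wild-type kidneys (1.05 ± 0.0999, adjusted p = 0.000330). The phospholipase gene Pla1a (1.25 ± 0.121) and the matrix protein gene Vwa1 (0.97 ± 0.0969) rose as well. Each of Gramd1b, Pla1a, Vwa1, Hif3a and Hsd11b1 passed in 16 of 17 alternatives, all but the one restricted to female libraries. With sex as a term their adjusted p ran from 0.00866 to 0.0114. These genes and Serpina6 were chosen by p in the main fit, and the alternatives reuse its counts. Kept calls thus follow partly from the choice and are not independent support. In Pkd1-RC/RC kidneys Serpina6 stood at 770.2, 765 and 759.9 CPM and Hsd11b1 at 8.66, 9.32 and 8.32 CPM, between the digenic and the wild-type libraries, and in Pkhd1-/- kidneys at 585, 542 and 621 CPM and 4.64, 5.17 and 4.68 CPM, within the wild-type range for Hsd11b1. Masp1, a protease of the lectin pathway, was at 6.39, 7.66 and 6.12 CPM in digenic and 5.65, 6.10 and 5.19 CPM in Pkd1-RC/RC kidneys, against 2.76, 2.18 and 2.17 CPM in wild-type kidneys. Vwa1 and Gramd1b overlap noncoding genes on the other strand, and Hsd11b1 overlaps Lamb3 and Masp1 overlaps Rtp4, an interferon-stimulated gene, so a share of reads may belong to the partner. Elsewhere in this report Irf9, Cfb, Rhbg and Neat1 overlap a gene on the same strand. Pkd1, Irf7, Dhx58, Il18bp, Cxcl16, Gli1, Slc27a2, Slc3a1, Glis2, Rsph3a, Snhg6 and Kmo overlap one on the other strand. All of these are uncertain in the same way.

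**Figure D4:**
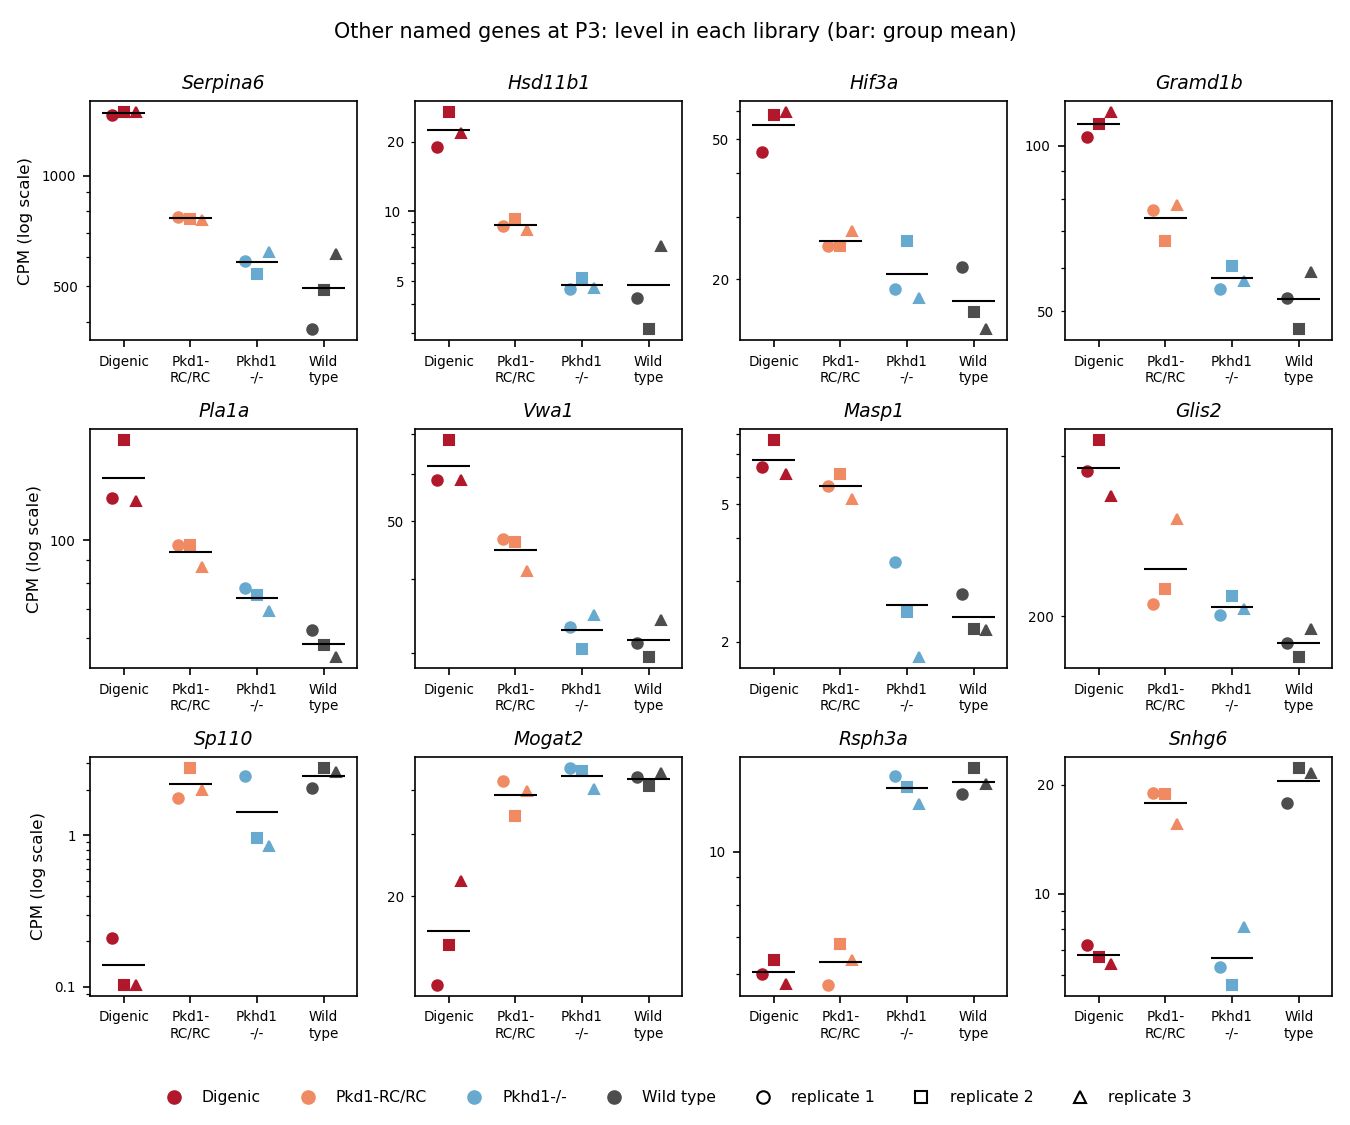
Level of 12 named genes in CPM (log scale) in each library of P3, by genotype; symbols mark replicate numbers and bars group means. The 3 digenic libraries of Serpina6 lie at 1465, 1487 and 1487 CPM, above Pkd1-RC/RC at 759.9 to 770.2 CPM and wild type at 382 to 614 CPM. Rsph3a is low with Pkd1-RC/RC and Snhg6 with Pkhd1-/-. Serpina6 was chosen among called genes whose groups did not overlap, so its separation from wild type is not a result.

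Falls were named among called genes above the level threshold whose groups did not overlap, so the separation of their groups was set by the choice. Sp110, a nuclear body protein (chr1:85576899-85598817, minus strand), was at 0.211, 0.103 and 0.103 CPM in digenic kidneys, against 2.04, 2.79 and 2.63 CPM in wild-type kidneys (-4.15 ± 0.456, adjusted p = 0.000761). Pkd1-RC/RC kidneys held 1.77, 2.78 and 1.99 CPM and Pkhd1-/- kidneys 2.45, 0.964 and 0.845 CPM, so 2 of the Pkhd1-/- libraries also lay below the wild-type range. Sp110 has close copies and overlaps G530012D18Rik, which fell by 6.62, and is uncertain. Mogat2, which makes diacylglycerol for fat synthesis, was at 11.2, 14.5 and 22.1 CPM in digenic and 43.7, 41.2 and 45.0 CPM in wild-type kidneys (-1.44 ± 0.190, adjusted p = 0.00294). Rsph3a, of motile cilia, and the noncoding RNA Snhg6 fell by 1.15 and 1.60. Rsph3a changed by -1.09 in Pkd1-RC/RC and Snhg6 by -1.62 in Pkhd1-/- kidneys, comparisons that use the same wild-type libraries. Others were the fatty acid hydroxylase Cyp4a14 (-1.53 ± 0.351), the lectin-like receptor Clec2h (-1.75 ± 0.378), the sulfate transporter Slc13a4 (-1.61 ± 0.368) and the serotonin-synthesis enzyme Tph1 (-1.53 ± 0.348). These 4 lost the call without 4 or 5 of the 6 libraries in turn, with changes from -1.82 to -1.32, -2.13 to -1.45, -2.16 to -1.30 and -1.77 to -1.18, and Cyp4a14 and Clec2h belong to families of close copies. The remaining one of the 10 largest falls, an annotated transcript of unproven status that overlaps Sh3bp4 on the same strand, fell by 1.73 ± 0.281 (adjusted p = 0.00786) and changed by -1.49 in Pkd1-RC/RC.

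Tubule and injury lists gave calls in both directions, beside 2.09% of all genes that rose and 0.61% that fell. Havcr1, the injury marker KIM-1 of the proximal tubule, was at 10.6, 21.0 and 2.92 CPM in digenic and 0.974, 0.253 and 1.18 CPM in wild-type kidneys (3.83 ± 0.679, adjusted p = 0.0159). It was highest in digenic replicate 2, as were 301 of the 377 rises, and lowest in digenic replicate 3, as were 275 of them. Havcr1 lost the call without wild-type replicate 1 or 2 (3.06 to 4.29 over the libraries left out) and with sex as a term (adjusted p = 0.135). Of 27 injury markers 2 rose (median 0.27), and Lcn2, a marker of distal injury, was at 17.5, 11.7 and 12.4 CPM in digenic and 14.3, 13.5 and 11.5 CPM in wild-type kidneys. Of 34 proximal tubule markers 4 rose and 3 fell, and the median of 0.08 turned to -0.19 among female libraries and -0.03 with sex as a term, and to -0.01 and -0.13 when digenic replicate 3 or wild-type replicate 2 was left out. Slc27a2, a fatty acid transporter, was at 554, 639.7 and 581 CPM in digenic and 304, 244 and 409.8 CPM in wild-type kidneys (0.89 ± 0.149, adjusted p = 0.00855), and Ggt1, Slc3a1 and Aqp1 rose by 0.55, 1.01 and 0.59. With sex as a term 0 proximal tubule markers rose and 3 fell, and Aqp1 also lost its call without 4 of the 6 libraries (0.44 to 0.72). Miox, of inositol breakdown, was at 237, 222 and 339.7 CPM in digenic and 447, 519 and 504 CPM in wild-type kidneys (-0.88 ± 0.163, adjusted p = 0.0145), and Kap and Dpep1 fell too (-0.78 ± 0.164 and -0.85 ± 0.113). Of 18 intercalated cell markers 3 fell and 0 rose (median -0.32), the ammonia transporter Rhbg at 31.7, 27.7 and 29.0 CPM in digenic and 44.3, 47.5 and 39.3 CPM in wild-type kidneys and the proton pump subunits Atp6v0d2 (-0.48 ± 0.0967) and Atp6v1g3 (-0.52 ± 0.112). Rhbg lost the call without digenic replicate 2 or wild-type replicate 1 (-0.64 to -0.50), and the pump subunits without 4 and 5 of the 6 libraries. The list's count was 1, 0 and 3 without digenic replicate 1, 2 and 3, and 0, 4 and 1 without wild-type replicate 1, 2 and 3, and 0 with sex as a term.

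Growth and signalling lists were mixed. Of 15 YAP and TAZ targets 4 rose and 0 fell (median 0.39), beside 2.09% of all genes that rose, and Ankrd1 was at 4.05, 5.29 and 1.37 CPM in digenic kidneys, against 0.625, 0.861 and 0.690 CPM in wild-type kidneys. Of 14 hedgehog genes 2 rose (median 0.15), the ligand Ihh, at 24.7, 43.0 and 26.6 CPM in digenic and 13.8, 13.8 and 16.0 CPM in wild-type kidneys, and the target Gli1 (0.83 ± 0.159). Of 29 cystic disease and ciliopathy genes Pkhd1 fell and Glis2, a transcription factor whose loss causes nephronophthisis, rose, at 289, 312 and 271 CPM in digenic and 187, 180.4 and 194 CPM in wild-type kidneys (0.64 ± 0.0941, adjusted p = 0.00509). Cell cycle genes gave 0 calls of 25, with a median of -0.19 and 0 of 25 changes above 0, against 8643 of 18043 over all genes. Their mean stood -0.16, -0.38 and -0.01 from the wild-type mean in digenic replicates 1, 2 and 3, with wild-type libraries from -0.17 to 0.12. The median was -0.08 without digenic replicate 2 and -0.0003 among female libraries. Matrix and myofibroblast genes gave 0 calls of 26 (median -0.13). The YAP and TAZ calls numbered 2, 1 and 5 without digenic replicate 1, 2 and 3, and 0, 2 and 3 without wild-type replicate 1, 2 and 3, and with sex as a term 0 YAP and TAZ targets and 0 hedgehog genes passed. Among the other lists, 1 of 10 renin-angiotensin genes rose, the angiotensin precursor Agt (0.88 ± 0.134). Of 13 principal cell markers 1 rose and 1 fell. These were the epithelial sodium channel subunit Scnn1a (0.65 ± 0.125) and Hsd11b2, which inactivates glucocorticoid (-0.51 ± 0.124). With sex as a term Agt and Scnn1a missed the threshold (adjusted p = 0.088 and 0.101, edgeR). Scnn1a also lost its call without digenic replicate 1 or 2 or wild-type replicate 3 (0.58 to 0.72). Principal cell falls numbered 0 with sex as a term and 0 without any library but wild-type replicate 1.

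Digenic kidneys were then set against each single mutant of the same age. Against Pkhd1-/- kidneys, which asks what the Pkd1 RC alleles add to the loss of Pkhd1, 630 of 18043 genes passed (3.49%), 479 higher and 151 lower in digenic kidneys. All 3 digenic mice were female and all 3 Pkhd1-/- mice male by their transcripts, so genotype and sex cannot be told apart here, and 4 genes passed with sex as a term. The header of Pkhd1-/- replicate 2 gives female and that of Pkd1-RC/RC replicate 1 male, against their transcripts. Without both, 343 genes passed against Pkhd1-/- and 9 against Pkd1-RC/RC; Tgtp1, Tgtp2 and Gbp6 in the first comparison (6.66, 6.84 and 6.01) and Ifit1, Ccl12 and Oas2 in the second (2.22, 2.55 and 2.27) then missed the threshold. The antiviral list had 30 of 33 members called, among them Ifit1 at 2.24, 2.4 and 2.44 CPM in Pkhd1-/- kidneys (2.87 ± 0.375, adjusted p = 0.00275), and Tgtp2 (6.82 ± 1.34), Tgtp1 (6.80 ± 1.35) and Gbp6 (6.12 ± 1.20) led the rises. Sp110 (-3.34 ± 0.453), Slc13a4 (-2.12 ± 0.369) and Clec2h (-2.06 ± 0.380) led the falls. The count was 331, 250 and 960 without digenic replicate 1, 2 and 3, and 1018 without wild-type replicate 2. Tgtp1, Tgtp2 and Gbp6 lost the call without digenic replicate 1 or wild-type replicate 1 or 3, with changes from 4.52 to 7.38.

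Against Pkd1-RC/RC kidneys, which asks what the loss of Pkhd1 adds to the RC alleles, 83 genes passed (0.46%), 59 higher and 24 lower, and 10 of the 33 antiviral genes were among them. Ifit1 was at 4.35, 4.32 and 3.13 CPM in Pkd1-RC/RC kidneys (2.14 ± 0.361, adjusted p = 0.0338), with Ccl12 (2.65 ± 0.383) and Oas2 (2.34 ± 0.450) the other leading rises. Oas2 (adjusted p = 0.0448) lost its call without digenic replicate 1 or 2 or wild-type replicate 1 or 3 (2.07 to 2.65) and Ifit1 without digenic replicate 1 (1.48 to 2.45). Serpina6 differed by 0.95 ± 0.137 (adjusted p = 0.0151), Hsd11b1 by 1.36 ± 0.233 (adjusted p = 0.0338) and Siglec1 by 1.59 ± 0.218 (adjusted p = 0.0101). The falls were led by Sp110 (-3.96 ± 0.455), Pkhd1 (-3.17 ± 0.202) and Snhg6 (-1.39 ± 0.151). The count was 22, 31 and 456 without digenic replicate 1, 2 and 3, 44 and 176 without wild-type replicate 1 and 2, 7 with sex as a term and 191 without the adrenal-positive libraries.

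The interaction, digenic minus both single mutants plus wild type on the log2 scale, compares the digenic change with the 2 single changes added together. By edgeR 0 of 18043 genes passed (0%), 1457 had an unadjusted p under 0.05, and DESeq2 called 214. The count was 196 without digenic replicate 3 and 5 without wild-type replicate 2. The estimate was 6.83 ± 1.77 for Tgtp1, 2.42 ± 0.509 for Ifit1, 2.01 ± 0.310 for Siglec1, 0.72 ± 0.193 for Serpina6, 0.22 ± 0.168 for Pla1a and 0.14 ± 0.294 for Masp1. None of these passed by edgeR. They were named by their change against wild type, and the interaction reuses those digenic libraries, which can raise its estimates. Set side by side with the shared wild-type libraries, the IRG and GBP list had medians of 4.20 in digenic, 0.14 in Pkd1-RC/RC and -0.40 in Pkhd1-/- kidneys, and the antiviral list 1.52, 0.12 and -0.19.

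The digenic change of P3 was last set against that of P0 and P12, in a fit of all 36 libraries. Against P0, 125 of 18049 genes differed in their digenic change (0.693%), 99 of them with a more positive change at P3. Most of the named genes among them belong to the interferon response. Names were chosen largely by calls at P3, with interferon lists among the sources, so they do not show the make-up of the 125 genes. The digenic change of Gbp6 stood at -1.82 ± 0.961, 5.70 ± 1.04 and 4.83 ± 0.995 on P0, P3 and P12, that of Ifit1 was -1.59 ± 0.477, 2.59 ± 0.490 and 1.09 ± 0.469, and that of Irf7 was -1.08 ± 0.399, 2.02 ± 0.409 and 1.60 ± 0.406. Of the IRG and GBP genes 13 of 14 and of the antiviral genes 17 of 33 differed between P3 and P0. Miox was further below wild type at P0, with a digenic change of -3.95 ± 0.322 against -0.87 ± 0.285 at P3 (difference 3.08 ± 0.413, adjusted p = 0.000621), and Kap likewise with -3.60 ± 0.389 against -0.78 ± 0.352. Ankrd1 and Havcr1 had digenic changes of 2.37 ± 0.331 and 3.77 ± 0.620 at P0, and their differences between P3 and P0 did not pass (-0.06 ± 0.472 and 0.07 ± 0.819). Rsph3a, Mogat2 and Pkhd1 were lower in digenic kidneys at each age. The digenic mice of P0 were 1 female and 2 males and wild-type mice 2 females and 1 male, unlike P3. Leaving out digenic replicate 2 or 3 of P3 gave 20 or 209 genes. Leaving out wild-type replicate 1, 2 or 3 of P3 gave 19, 48 or 59.

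Against P12, 420 genes differed (2.33%), 178 with a more positive and 242 with a more negative digenic change at P3. Lcn2 had a digenic change of 0.09 at P3 and 3.79 ± 0.323 at P12, the neutrophil gene S100a8 of 0.34 and 4.38 ± 0.515, and Ccl21a of 1.70 and 5.2 ± 0.474. Serpina6 had 1.59 at P3 and -0.17 ± 0.263 at P12 (difference 1.76 ± 0.374, adjusted p = 0.00980), and Vwa1 0.98 and -0.36 ± 0.140 (difference 1.34 ± 0.199, adjusted p = 0.000337). Medians of the macrophage list were -0.11, 0.70 and 2.1 at P0, P3 and P12 in that fit, of the neutrophil list -0.96, 0.24 and 3.93, and of the class II list -0.45, 2.04 and 3.77, while those of the antiviral list were -0.42, 1.53 and 0.86. Between P3 and P12, 2 of 33 antiviral genes and 0 of 14 IRG and GBP genes differed in their digenic change. Without the P12 libraries whose headers differ from their titles 271 genes differed, 14 of the 17 named ones among them. The digenic change at P12 was then 2.92 ± 0.2 for Lcn2, 2.88 ± 0.847 for Gbp6, 0.14 ± 0.453 for Ifit1 and 0.87 ± 0.386 for Irf7, and the medians were 1.73 for macrophage, 3.04 for class II and 0.33 for antiviral genes. With all P12 libraries kept and 1 library of P3 left out, the count was 228 and 261 without digenic replicate 1 and 3 of P3. It was 244 and 261 without wild-type replicate 1 and 2 of P3. Adrenal markers were above 10 times the P3 median in 2 of the 3 digenic libraries of P12 and in 0 of its wild-type libraries. These are replicates 2 and 3, the only digenic libraries of P12 left when replicate 1 was dropped for its header. The part of adrenal transcripts in these values was not tested.

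**Figure D5:**
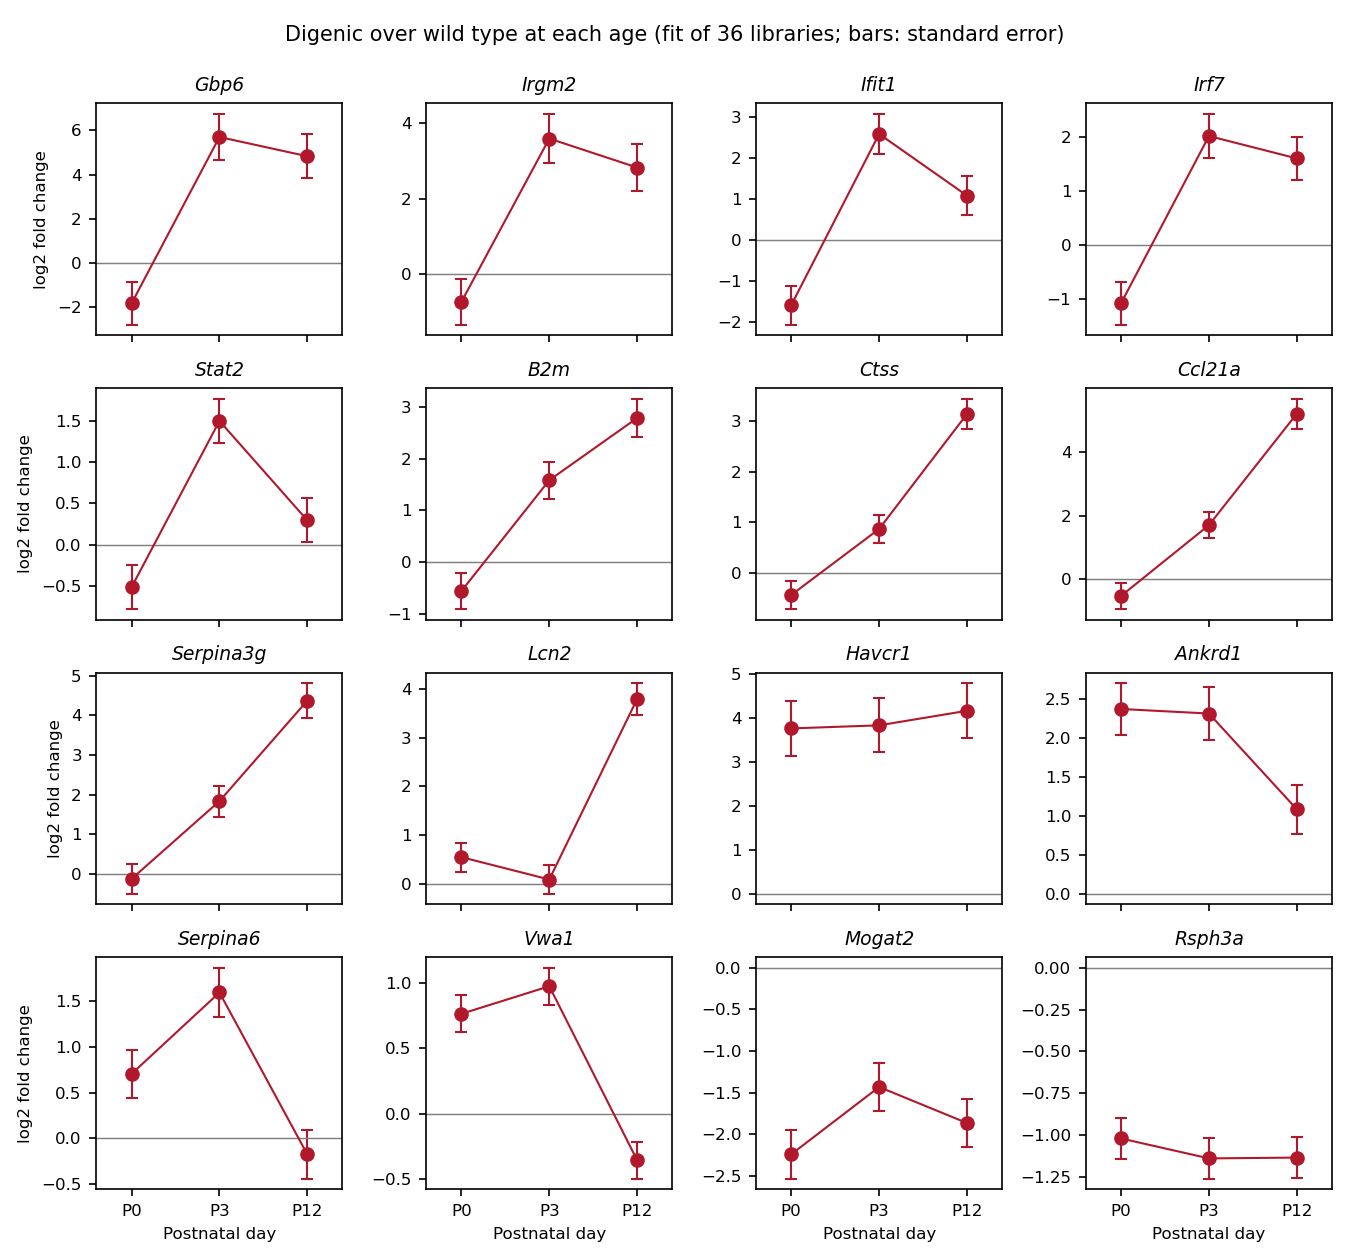
Log2 fold change, digenic over wild type, of 16 named genes at P0, P3 and P12 (points, with standard error bars, from the fit of 36 libraries). Gbp6, Irgm2, Ifit1, Irf7 and Stat2 are highest at P3, Ctss, Ccl21a, Serpina3g and Lcn2 at P12, and Mogat2 and Rsph3a lie below 0 at each age. For the genes highest at P3 the difference between P3 and P12 did not pass (adjusted p from 0.0888 to 0.838, edgeR). Without the P12 libraries whose headers differ from their titles, those of Ifit1 and Stat2 passed. The digenic libraries of P12 that remained both carried adrenal transcripts.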

How the data were processed

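Reads were paired-end Illumina HiSeq reads of whole-kidney RNA. Per the submitters' processing notes and the series' design text, the authors used the MAP-RSeq 2.1.0 pipeline with TopHat2, Bowtie and featureCounts on build mm10, and the deposited table holds raw read counts per gene next to values not used here. It lists 18049 genes with a mean of at least 8.75 counts, so genes below were not analysed here, and 17864 (99.0%) were placed in GENCODE M21.

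From the deposited counts, the 12 libraries of P3 were fitted together, 1 term per genotype, with edgeR 4.0.16 in R 4.3.3 (filterByExpr, TMM, robust quasi-likelihood test, Benjamini-Hochberg adjusted p under 0.05). Ages were compared in 1 fit of 36 libraries. The script was tested on simulated data. DESeq2 1.42.0, other filters and scaling, only the 6 libraries, a replicate block, sex as a term and female libraries alone were alternatives. So were fits without adrenal-positive libraries or without libraries whose header differs from the title or transcripts. Others left out 1 of the 6 digenic and wild-type libraries of P3 at a time. No library of another genotype or age was left out singly.

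Members and lists were chosen with earlier results of these data known. Named genes are Pkhd1, Pkd1 and Pkd2, the 10 largest rises, 10 largest falls and 10 smallest adjusted p-values among called autosomal genes whose groups did not overlap and whose mean log2 CPM was 0 or more, up to 4 called members per list, and the 3 largest rises and 3 largest falls of each other comparison. Genes named beyond this rule were chosen after their values were seen. Some genes that the rule selects are not reported here. Lists share some genes and are described by counts and medians without a set test.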

Additional observations from a re-analysis of the deposited data

Results flagged for a closer look

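The digenic change differed between P3 and P0 in 125 genes by the test of the difference in the fit of 36 libraries, and in named ones by the following log2 amounts, P3 minus P0. Among IRG and GBP GTPases it was 6.86 for Tgtp1, 6.78 for Tgtp2, 7.51 for Gbp6, 5.19 for Ifi47, 5.21 for Gbp5, 4.32 for Irgm2, 2.46 for Gbp9 and 4.27 for Gbp3. Among transducers and sensors it was 2.01 for Stat2, 3.10 for Irf7, 2.75 for Usp18, 1.80 for Irf9, 2.42 for Dhx58, 1.63 for Ifih1 and 1.15 for Ddx58. Among antiviral genes it was 4.18 for Ifit1, 2.68 for Oasl2 and 3.09 for Isg15, and in antigen presentation 2.15 for B2m and 4.15 for Psmb9. It was 2.14 for Siglec1, 2.26 for Fcgr1 and 1.38 for Icam1. The difference was negative for the tight junction gene Cldn14 (-2.92) and for Kmo (-3.17), Gldc (-2.12) and Aldh8a1 (-1.98), enzymes of amino acid breakdown. When each of the 6 P3 libraries of the comparison was left out in turn, Tgtp2, Gldc and Aldh8a1 kept their call in 1 of 6 fits, Tgtp1 in 2, and Gbp6 and Kmo in 4. With sex as a term Tgtp1 and Tgtp2 missed the threshold (adjusted p = 0.0634 and 0.097, edgeR).

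Between P3 and P12 the digenic change differed in 420 genes. The difference, P3 minus P12, was 1.76 for Serpina6, 0.95 for Gramd1b, 1.34 for Vwa1, 1.49 for Hsd11b1, 1.34 for Helz2 and 0.79 for Ntn1. It was 3.49 for the noncoding RNA Neat1, 3.27 for Aspg and 2.78 for Egf, a growth factor of the distal tubule. It was -2.28 for Ctss, -3.49 for Ccl21a, -1.97 for Siglec1, -2.15 for Cldn14 and -2.54 for Serpina3g. The most negative named values were -4.56 for Sprr2f, -4.04 for S100a8 and -3.69 for Lcn2. Without the P12 libraries whose column headers differ from their titles, 14 of these 17 genes kept their call, and Siglec1 (-1.71), Cldn14 (-2.08) and Serpina3g (-1.89) did not. Neat1 kept its call in 3 of the 6 fits that left out a library of P3. Females numbered 1 of 3 digenic and 2 of 3 wild-type mice at P0, 3 and 1 at P3, and 1 and 1 at P12, and adrenal-positive libraries 0 digenic and 1 wild-type at P0, 1 and 0 at P3, and 2 and 0 at P12. Their part in these differences was not tested.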

How the results depend on the processing

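Pkhd1, Serpina6 and Snhg6 kept their call against wild type in all 17 alternatives, and no gene chosen by the rule for named genes changed sign in any. The alternatives reuse the counts by which the rule chose its genes, so they are not independent of it. Of the values of these genes under an alternative, 1375 kept their side of the threshold and 601 lost the call. The count against wild type was 1118 by DESeq2 (767 higher and 351 lower), 59 with only the 6 libraries (46 and 13), 54 with sex as a term (31 and 23) and 6 among females (2 and 4). The fit of 36 libraries gave 58 falls. With the replicate block it was 285 (223 and 62), and 393, 27, 47 and 249 against Pkhd1-/-, against Pkd1-RC/RC, between P3 and P0 and between P3 and P12. Deviations of same-numbered libraries correlated at 0.131, -0.162 and -0.295, so no pairing by number was seen. Deviations from means of 3 libraries cannot exclude one. Against Pkhd1-/- the count was 1379 by DESeq2, 4 with sex and 400 without adrenal-positive libraries. Against Pkd1-RC/RC it was 525, 7 and 191, with 194 in the fit of 36, 18 among females and 143 without robust estimation. The interaction gave 214 by DESeq2 and 71 without adrenal-positive libraries. Between P3 and P0 the count was 297 by DESeq2, 20 with digenic and wild-type libraries only, 8 among females and 237 without adrenal-positive libraries, and between P3 and P12 it was 738, 148 and 9 for the first 3 of these. Leaving out 1 of the 6 digenic and wild-type libraries of P3 gave 152 to 845 against wild type (114 to 653 higher, 24 to 192 lower). The same fits gave 250 to 1018 against Pkhd1-/-, 22 to 456 against Pkd1-RC/RC and 0 to 196 for the interaction. They gave 19 to 209 between P3 and P0 and 228 to 415 between P3 and P12. Libraries of the single mutants, P0 and P12 were not left out singly, so these ranges do not cover them. Settings chosen after seeing the headers gave 343 against Pkhd1-/- and 9 against Pkd1-RC/RC without the P3 libraries whose header sex differs from the transcripts, and 271 between P3 and P12 without the P12 libraries whose headers differ from the titles. The median of proximal tubule markers turned to -0.19 among females, -0.03 with sex as a term and -0.01 without adrenal-positive libraries, and ran from -0.13 to 0.15 when 1 library was left out; the cause was not tested. For lists, the female and adrenal settings were chosen after seeing the data.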

Other observations

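Genes called between digenic and wild-type kidneys were counted around both mutated loci. Within 20 Mb of Pkd1 on chromosome 17, 46 of 536 tested genes were called (8.58%, against 2.7% of all genes), 33 higher and 13 lower in digenic kidneys, and on the whole chromosome 53 of 844 (6.28%). Against Pkhd1-/- kidneys the same window held 57 called genes (10.6%, against 3.49% of all genes), and against Pkd1-RC/RC kidneys, which carry the same Pkd1 alleles, it held 1 (0.187%, against 0.46%), Cbs, an enzyme of the transsulfuration pathway. Rsph3a and Cfb are among the genes of this window, and so are H2-Q4, H2-Q2, H2-M3, H2-DMb1 and Psmb9 of antigen presentation. Within 20 Mb of Pkhd1 on chromosome 1, 6 of 179 genes were called against wild type (3.35%, near the 2.7% of all genes), Snhg6 among them, 3 (1.68%) against Pkhd1-/- and 5 (2.79%) against Pkd1-RC/RC. These comparisons share the digenic libraries, and the counts were not tested.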
